A study of Mus musculus with 4 samples.

Results

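Of the 15690 genes in the deposited tables, 10 were chosen by name because their products pass or receive checkpoint and costimulatory signals on macrophages and dendritic cells. They are Cd274 (PD-L1), Pdcd1lg2 (PD-L2), 4632428N05Rik (the older symbol of Vsir, which encodes VISTA), Havcr2 (TIM-3), Lgals9 (galectin-9), Sirpa, Cd47, Cd80, Cd86 and Cd40. The genes were picked by name with earlier results of these data known, without a threshold on any value, and all 10 had a row. The set is wider than ligands in the strict sense, since Havcr2, Sirpa and Cd40 encode receptors of the myeloid cell itself.

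Transcripts were counted in single myeloid cells sorted from brains with lung cancer metastases, in a study of the microglia and macrophages found there. All mice were Balb/C athymic nude animals (CAnN.Cg-Foxn1nu/Crl), which lack a thymus and are therefore poor in T cells. The 4 groups were BMDM with whole brain radiation therapy (WBRT), BMDM without WBRT, microglia with WBRT and microglia without WBRT. BMDM is the usual short form of bone marrow-derived macrophage, a cell that reaches the brain through the blood. WBRT was labelled as 5 fractions of 2 Gy with the term d3, whose starting point the labels do not state. Tumors of the plates without WBRT were labelled small and those of the plates with WBRT not stratified, so treatment, tumor stage and plate cannot be told apart. Each group was 1 plate of 384 wells, and the labels name no animals. There was therefore no replicate and no test across samples, and each difference is one between 2 plates.

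T cells read signals from the cell that presents antigen to them, some from the antigen itself and some from ligands of the B7 family. CD80 and CD86 activate through CD28 and restrain through CTLA-4, whereas PD-L1 and PD-L2 restrain through PD-1 and VISTA restrains T cells as well. CD47 on a target cell restrains phagocytosis through SIRPα on the macrophage, and CD40 on antigen-presenting cells receives the activating signal of CD40 ligand. Brain macrophages carry many of these molecules, and dendritic cells that have matured and move to lymph nodes are known for high CD40, CD86, PD-L1 and PD-L2.

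A well was kept when it held at least 1000 transcripts outside spike-in and mitochondrial rows and had a spike-in (ERCC) share under 50%. This left 262 wells of BMDM with WBRT, 234 of BMDM without WBRT, 151 of microglia with WBRT and 157 of microglia without WBRT, with median depths of 8894, 4388, 2546 and 4789 transcripts per well in that order. The median ERCC share was 30.6% in microglia with WBRT and between 6.92% and 7.86% in the other 3 plates. No well had the same counts as a well of another plate. Levels are CPM, a gene's transcripts summed over a plate and scaled to the plate's total of endogenous transcripts, with exact Poisson 95% intervals that cover counting error only. In such sums, more transcripts per cell and more cells of a type that carries them cannot be told apart. The 10 microglia markers summed to 3434 CPM in BMDM with WBRT and 3568 CPM in BMDM without WBRT, against 10855 CPM in microglia with WBRT and 9700 CPM in microglia without WBRT.

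Cd274 and Pdcd1lg2 lie next to each other on mouse chromosome 19. In the GRCm38.p6 annotation of RefSeq, Cd274 spans chr19:29362107-29388095, Pdcd1lg2 begins 22824 bases after its end, and Jak2, a kinase of interferon receptor signalling, ends 49012 bases before its start. Havcr2 (chr11:46454931-46481255) and Lgals9 (chr11:78962979-78984924) are both on chromosome 11. Cd47, Cd80 and Cd86 are on chromosome 16, Sirpa and Cd40 on chromosome 2, and Vsir is at chr10:60346851-60430294, inside the span of Cdh23. Whether reads were counted by strand is not given in the sources used here. Cd274 overlaps the start of Plgrkt, which had 37.8 to 58.5 CPM, and Cdh23 had 0 to 9.15 CPM, so reads in these overlaps may have been given to either gene.

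Promoter sequence, taken as 250 bases before to 50 bases after an annotated start, was on hand for 7 of the 10 genes from RefSeq (GRCm38.p6). The promoters of Lgals9, Havcr2 and Cd274 are shown because Lgals9 and Cd274 differed by over 2-fold between plates with and without WBRT and because Lgals9 and Havcr2 held the motifs that were found. These 3 motifs were searched on both strands and do not overlap each other in these windows: the interferon-stimulated response element (ISRE, read as GAAA, any 2 bases and GAAA), the interferon gamma activated site (GAS, TTCNNNGAA) and a PU.1 site (GAGGAAGT). Capitals mark the matches. The first belongs to chr11:78984875-78985174 on the minus strand, the second to chr11:46454681-46454980 and the third to chr19:29367188-29367487, both on the plus strand. The Cd274 window lies inside the span given above for this gene, so its annotated start is a later one than 29362107. The first part of this window overlaps Plgrkt, which ends at 29367292.

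Lgals9: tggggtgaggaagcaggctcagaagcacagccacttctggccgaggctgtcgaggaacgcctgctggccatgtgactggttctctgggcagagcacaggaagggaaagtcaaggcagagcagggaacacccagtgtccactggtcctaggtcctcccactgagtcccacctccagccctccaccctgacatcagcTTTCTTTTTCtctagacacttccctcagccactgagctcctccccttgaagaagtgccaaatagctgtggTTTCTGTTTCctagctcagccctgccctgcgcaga

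Havcr2: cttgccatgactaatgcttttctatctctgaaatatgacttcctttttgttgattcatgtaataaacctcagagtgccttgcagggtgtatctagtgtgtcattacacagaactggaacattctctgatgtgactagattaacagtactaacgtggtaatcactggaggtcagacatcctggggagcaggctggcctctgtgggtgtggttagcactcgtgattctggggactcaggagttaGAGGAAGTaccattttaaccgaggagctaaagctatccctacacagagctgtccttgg

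Cd274: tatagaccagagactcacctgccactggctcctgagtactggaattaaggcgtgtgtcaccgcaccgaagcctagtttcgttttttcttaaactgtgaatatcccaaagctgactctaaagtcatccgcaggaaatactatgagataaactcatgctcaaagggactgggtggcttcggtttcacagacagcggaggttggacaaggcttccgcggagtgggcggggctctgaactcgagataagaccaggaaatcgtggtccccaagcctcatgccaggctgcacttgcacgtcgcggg

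Lgals9 held 2 ISRE matches, both read on the opposite strand, with first bases at -55 and 16 from the start. Of 32851 RefSeq promoters of this length, 3.44% held an ISRE. Havcr2 held a PU.1 match with its first base at -8, against 3.20% of promoters. The GAS motif, present in 8.30% of promoters, was not in any of the 7 windows, and Cd274 held none of the 3 motifs in this window. These matches are descriptions of letters and not binding sites.

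**Figure D1:**
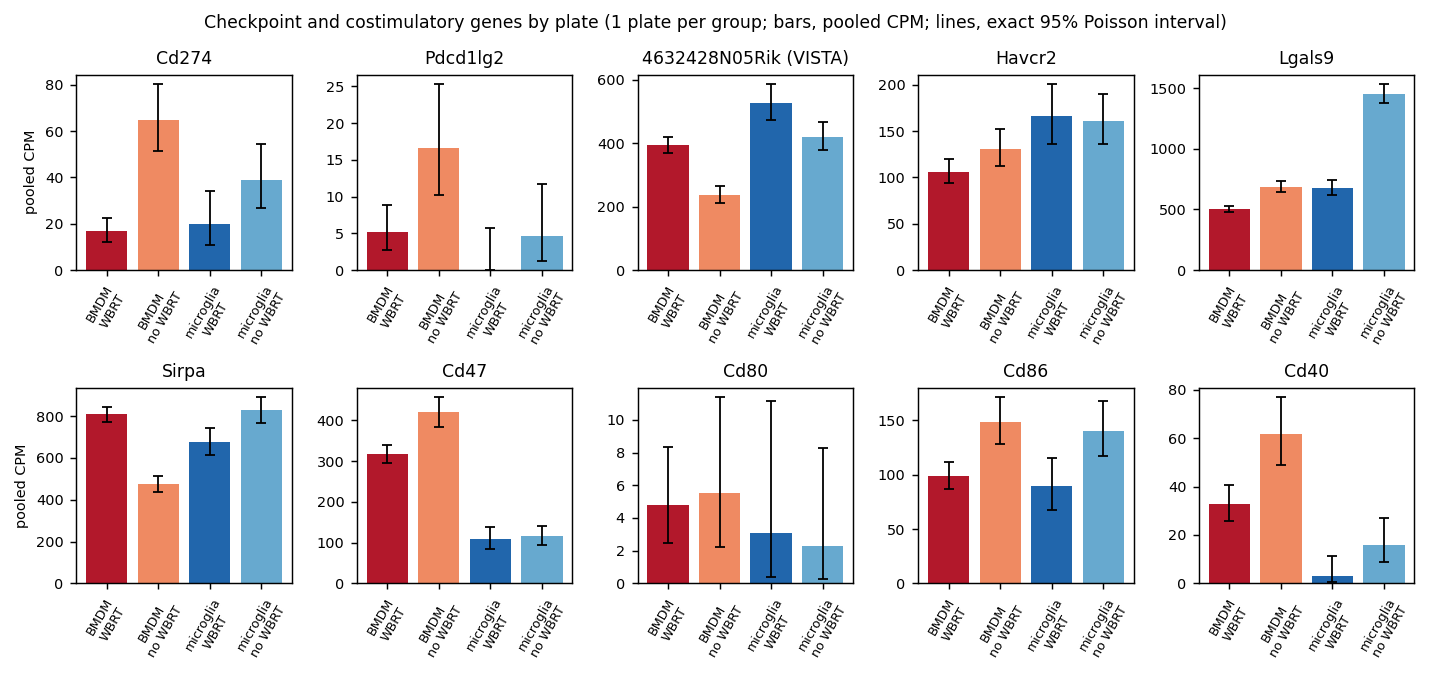
Pooled level of each of the 10 genes (bars, CPM, each panel with its own axis from 0) in the 4 plates, with exact Poisson 95% intervals for counting error. Cd47 and Cd40 were higher in both BMDM plates than in both microglia plates, Lgals9 stood highest in microglia without WBRT, and Cd274 stood highest in BMDM without WBRT.

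Cd274 encodes PD-L1, the main ligand of the inhibitory receptor PD-1. Its level was 16.7 CPM (12.05 to 22.6) in BMDM with WBRT and 64.8 CPM (51.5 to 80.4) in BMDM without WBRT. In microglia it was 20.03 CPM (10.7 to 34.2) with WBRT and 38.9 CPM (26.9 to 54.3) without WBRT. These levels rested on 42, 82, 13 and 34 transcripts in that order. Both plates without WBRT were above both plates with WBRT, and the intervals of the 2 microglia plates overlapped.

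In BMDM the ratio of WBRT to no WBRT was 0.26 (0.17 to 0.38), and in microglia it was 0.52 (0.25 to 1.002), so the interval of the microglia ratio reached 1. Depth differed between plates, and after each well was thinned to 1000 transcripts Cd274 was detected in 1.39% of wells of BMDM with WBRT and 7.03% of BMDM without WBRT. The thinned shares were 1.35% in microglia with WBRT and 3.88% in microglia without WBRT. Without thinning the shares were 9.16%, 20.1%, 7.28% and 14.0% in the order BMDM with WBRT, BMDM without WBRT, microglia with WBRT and microglia without WBRT. The plates kept their order of with below without in either sort under both counts.

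Pdcd1lg2, which encodes the other PD-1 ligand, was scarce. It had 13 transcripts (5.17 CPM) in BMDM with WBRT and 21 (16.6 CPM) in BMDM without WBRT, against 0 in microglia with WBRT and 4 (4.57 CPM) in microglia without WBRT. The interval of the 0 count in microglia with WBRT reached 5.68 CPM, so microglia with and without WBRT were not distinguishable at this depth. The ratio of WBRT to no WBRT in BMDM was 0.31 (0.14 to 0.65), below 1 as for its neighbour Cd274, but in wells of at least 3000 transcripts it was 0.97, with 5.36 CPM with WBRT and 5.54 CPM without WBRT. BMDM without WBRT had 3.63 times the level of microglia without WBRT over all kept wells and 1.05 times in wells of at least 3000 transcripts. So neither difference was seen in the deeper wells. The Ccr7-led cluster described below held 57.1% of the Pdcd1lg2 of BMDM without WBRT, and its median depth was 3049 transcripts per well. The cut at 3000 transcripts therefore changed the mix of cells as well as the depth. Both transcripts were seen in 7 wells of BMDM without WBRT, where Cd274 was seen in 47 wells and Pdcd1lg2 in 18.

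VISTA, encoded by 4632428N05Rik, is an inhibitory B7 family member that microglia and other myeloid cells carry. It stood at 393 CPM (369 to 419) in BMDM with WBRT and 237 CPM (211 to 266) in BMDM without WBRT. Microglia had 529 CPM (474 to 588) with WBRT and 421 CPM (379 to 466) without WBRT. Its order was the opposite of Cd274: within either sort the WBRT plate was the higher one, by 1.66 times (1.46 to 1.90) in BMDM and 1.26 times (1.08 to 1.46) in microglia. BMDM were below microglia in both settings, with ratios of 0.74 (0.66 to 0.84) with WBRT and 0.56 (0.48 to 0.66) without WBRT. Scaling to ERCC in place of endogenous transcripts turned the direction of VISTA for BMDM over microglia with WBRT and for WBRT in microglia. This scaling moved the median log2 ratio of all genes from 0.07 to 1.46 in the former comparison and from 0.06 to -1.49 in the latter.

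Havcr2 encodes TIM-3, an inhibitory receptor that myeloid cells carry as well as T cells. It was at 106 CPM in BMDM with WBRT and 131 CPM in BMDM without WBRT, and at 166 CPM in microglia with WBRT and 161 CPM in microglia without WBRT. The 2 microglia plates had overlapping intervals, with a ratio of WBRT to no WBRT of 1.03 (0.80 to 1.34). The lowest plate was BMDM with WBRT, which had 0.64 times (0.51 to 0.80) the level of microglia with WBRT, a direction that ERCC scaling turned.

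Lgals9 encodes galectin-9, a sugar-binding protein that is one of the ligands of TIM-3. Its level was 503 CPM (1263 transcripts) in BMDM with WBRT, 688 CPM (871) in BMDM without WBRT, 680 CPM (441) in microglia with WBRT and 1455 CPM (1273) in microglia without WBRT. Microglia without WBRT stood apart from the other 3 plates. The ratio of WBRT to no WBRT was 0.47 (0.42 to 0.52) in microglia and 0.73 (0.67 to 0.80) in BMDM. Without WBRT, BMDM had 0.47 times (0.43 to 0.52) the level of microglia, and with WBRT 0.74 times (0.66 to 0.83), and ERCC scaling turned the direction of the ratio with WBRT.

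Thinned shares of wells with Lgals9 followed the same picture, with 37.0% in BMDM with WBRT, 44.4% in BMDM without WBRT, 42.7% in microglia with WBRT and 75.3% in microglia without WBRT. Every one of the 66 wells of microglia without WBRT in which Havcr2 was seen also had Lgals9, which was seen in 154 of the 157 wells there. The 2 transcripts were seen together in 115 wells of BMDM with WBRT, 79 of BMDM without WBRT and 35 of microglia with WBRT.

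Sirpa encodes the inhibitory receptor for CD47 on macrophages. It was at 809 CPM in BMDM with WBRT and 476 CPM in BMDM without WBRT, and at 678 CPM in microglia with WBRT and 829 CPM in microglia without WBRT. WBRT and no WBRT differed in opposite directions in the 2 sorts, with ratios of 1.70 (1.55 to 1.86) in BMDM and 0.82 (0.72 to 0.92) in microglia. BMDM stood above microglia with WBRT, by 1.19 times (1.08 to 1.33), and below them without WBRT, at 0.57 times (0.52 to 0.64). The difference between these ratios was not tested, as each rests on 1 plate per group. Sirpb1a and Sirpb1b, relatives of Sirpa, had at most 1.59 CPM in any plate.

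Cd47 encodes the ligand of SIRPα that marks a cell as self. Its level was 317 CPM (295 to 339) in BMDM with WBRT and 420 CPM (385 to 457) in BMDM without WBRT, against 109 CPM (85.4 to 138) in microglia with WBRT and 117 CPM (95.1 to 142) in microglia without WBRT. All BMDM values were above all microglia values, with ratios of BMDM to microglia of 2.89 (2.27 to 3.74) with WBRT and 3.598 (2.91 to 4.49) without WBRT. Sirpa and Cd47 were seen in the same well in 202 of 262 wells of BMDM with WBRT and 106 of 234 wells of BMDM without WBRT, against 32 of 151 wells of microglia with WBRT and 41 of 157 wells of microglia without WBRT. These shares were not thinned and follow depth as well as level.

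Cd80 and Cd86 encode the B7 ligands that CD28 and CTLA-4 share. Cd80 was close to the floor, with 12 transcripts in BMDM with WBRT, 7 in BMDM without WBRT and 2 in each microglia plate, or 2.29 to 5.53 CPM, and no difference was detectable at this depth. Cd86 was at 98.7 CPM in BMDM with WBRT and 149 CPM in BMDM without WBRT, and at 89.4 CPM in microglia with WBRT and 141 CPM in microglia without WBRT. For Cd86 the plates split by WBRT and not by sort. The ratio of WBRT to no WBRT was 0.66 (0.55 to 0.81) in BMDM and 0.64 (0.46 to 0.88) in microglia, while BMDM over microglia was 1.105 (0.83 to 1.497) with WBRT and 1.06 (0.84 to 1.34) without WBRT.

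Cd40 encodes the receptor for CD40 ligand, which drives maturation of antigen-presenting cells. It was at 32.6 CPM (82 transcripts) in BMDM with WBRT and 61.6 CPM (78) in BMDM without WBRT. Microglia had 3.08 CPM (2 transcripts) with WBRT and 16.01 CPM (14) without WBRT. The BMDM plates were above the microglia plates, by 10.6 times (2.84 to 88.9) with WBRT and 3.85 times (2.16 to 7.37) without WBRT, and the first ratio rests on 2 microglia transcripts. In BMDM without WBRT a single well held 16 of its 78 transcripts, and its 3 highest wells held 30.8%. WBRT over no WBRT in BMDM was 0.53 (0.38 to 0.73).

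The members were then set beside all genes. A gene was counted as past 2-fold when its log2 ratio of CPM + 5 was 1 or more in size and it had at least 20 CPM in 1 of the 2 plates. The pseudocount of 5 CPM understates differences of low genes. For BMDM over microglia without WBRT, 2 of the 8 measured members (Cd47 and Cd40) were past 2-fold higher, against 10.3% of 6591 genes, and 1 (Lgals9) past 2-fold lower, against 6.81%. With WBRT, Cd47 and Cd40 were again past 2-fold higher, against 7.91% of 6774 genes, and 0 members were lower, against 7.45%.

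For WBRT over no WBRT in BMDM, Cd274 alone among 8 members was past 2-fold lower, against 6.14% of 6551 genes, and 0 were past 2-fold higher, against 5.16%. In microglia Lgals9 alone among 7 members was past 2-fold lower, against 7.56% of 6723 genes, and 0 were higher, against 9.36%. Pdcd1lg2 and Cd80 were under 20 CPM in every plate, and Cd40 was under it in both microglia plates, so they are left out of these counts. The members' median log2 ratio for WBRT over no WBRT was -0.43 in BMDM (2 higher, 6 lower) and -0.29 in microglia (2 higher, 5 lower), beside 0.08 and 0.06 for all genes. Of all genes, 55.9% of 6551 were higher with WBRT in BMDM and 53.7% of 6723 in microglia. For BMDM over microglia the members' median was -0.03 with WBRT and -0.11 without WBRT, beside 0.07 and 0.02 for all genes. With every well weighted alike the members' median was 0.34 in both settings. That setting also changed which members reached 20 CPM, and over the members counted before the median was 0.14 with WBRT and 0.05 without WBRT.

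**Figure D2:**
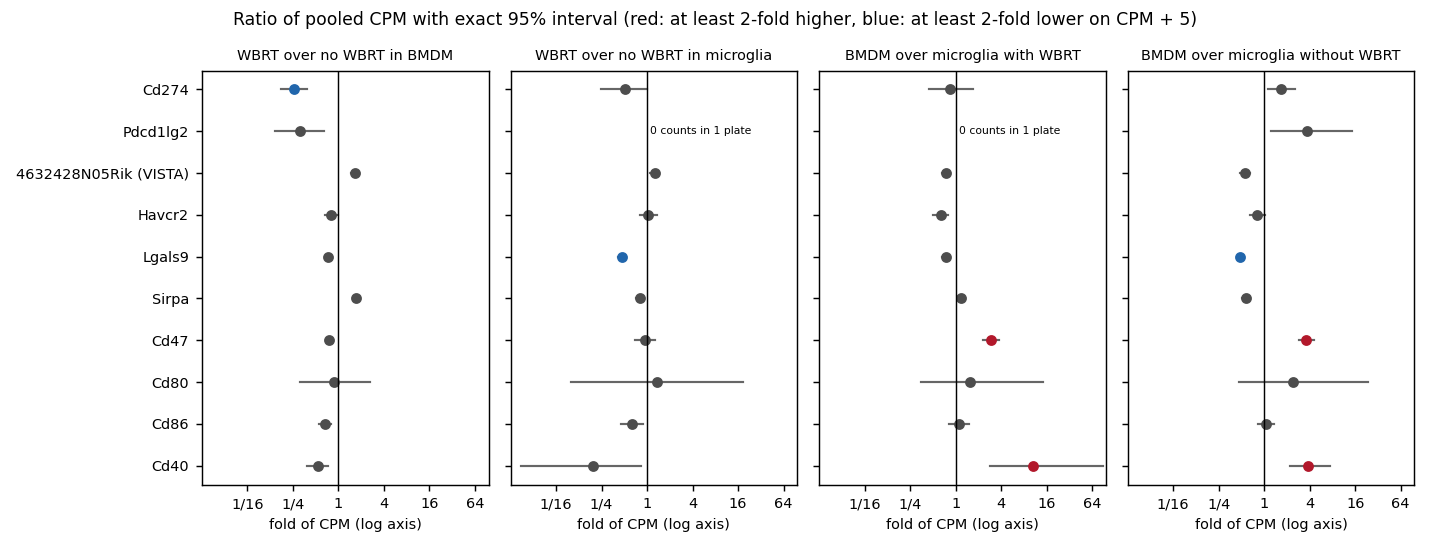
Ratio of pooled CPM for each gene in the 4 comparisons (log axis) with exact 95% intervals, in red where the gene was past 2-fold higher, in blue where it was past 2-fold lower and in grey otherwise, genes under 20 CPM in both plates included. Cd47 and Cd40 were past 2-fold higher in BMDM than in microglia in both settings and Lgals9 past 2-fold lower without WBRT, while with WBRT Cd274 was past 2-fold lower in BMDM and Lgals9 in microglia.

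**Figure D3:**
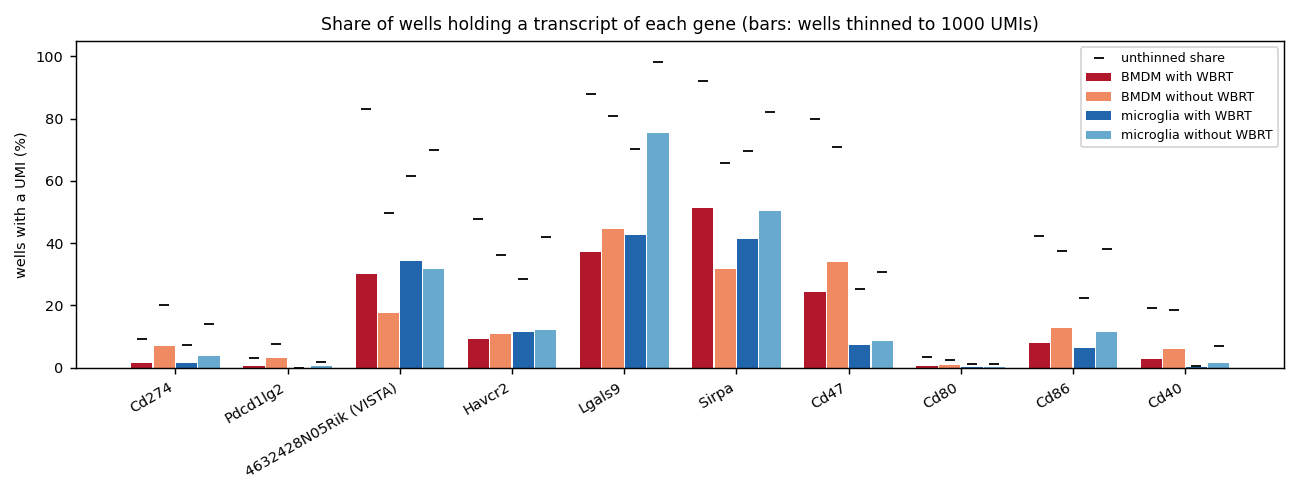
Percent of wells with at least 1 transcript of each gene in the 4 plates, as bars after thinning each well to 1000 transcripts and as dashes without thinning. Thinning lowered Cd274 to 1.39% and 7.03% of wells in BMDM with and without WBRT, and Lgals9 kept 75.3% in microglia without WBRT.

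The plates held cells of several kinds, so the same genes were read by cluster. Wells were grouped into 11 clusters from other genes, with the 10 members, their pathway lists and cell cycle, mitochondrial and ribosomal protein genes left out. A cluster got a name only where at least 3 listed markers of a type were enriched and no other type had more markers among its 10 leading genes. Of the 11, a cluster of 162 wells was border-associated macrophage-like (leading genes Cd93, Pf4, F13a1), and clusters of 138 wells (Kcnk2, C4b, Sall1) and 128 wells (Cxcl13, Cst7, P2ry12) were microglia-like. In the cluster of 162 wells, 5 of the 8 border-associated macrophage markers were enriched, and Cd163, Folr2 and Lyve1 were not. Its 160 wells of BMDM with WBRT had 1908 CPM of these 8 markers, 2061 CPM of monocyte markers and 2870 CPM of microglia markers. The name follows the rule above and does not settle the cell type. The second microglia-like cluster had a low median level of the nuclear RNA Malat1, 225 CPM against 3246 CPM in the first. Dendritic cell-like clusters had 39 wells (Xcr1 and Clec9a among the leading genes, called Xcr1-led here) and 36 wells (Ccr7, Ccl22, Il12b), and the other 6 were left unnamed. A cluster of 55 wells led by Slc1a3 had 7 enriched microglia markers but none among its leading genes, where Slc1a3 itself is on the astrocyte list, so it too was left unnamed. Doublets were not called.

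Clusters followed plates closely. The border-associated macrophage-like cluster had 160 of its 162 wells in BMDM with WBRT, and all 36 wells of the Ccr7-led cluster were in BMDM without WBRT, so a cluster of this kind may reflect its plate as well as a cell type. The first microglia-like cluster had 46 of its wells in the BMDM plate without WBRT. The 10 dendritic cell markers summed to 330 CPM in BMDM with WBRT and 2271 CPM in BMDM without WBRT, against 433 CPM in microglia with WBRT and 530 CPM in microglia without WBRT, and 4 of the 10 were at 0 in each microglia plate. The 8 border-associated macrophage markers ran the other way in BMDM, with 1596 CPM with WBRT and 344 CPM without WBRT, and had 350 CPM in microglia with WBRT and 69.7 CPM in microglia without WBRT. The 5 astrocyte markers summed to 865 CPM in microglia with WBRT and 101 CPM in microglia without WBRT, and all 5 were past 2-fold higher with WBRT. Aqp4, the astrocyte water channel, was at 68.1 CPM in microglia with WBRT and at 0 in microglia without WBRT. The part of these markers in the WBRT differences of microglia was not tested over whole plates.

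**Figure D4:**
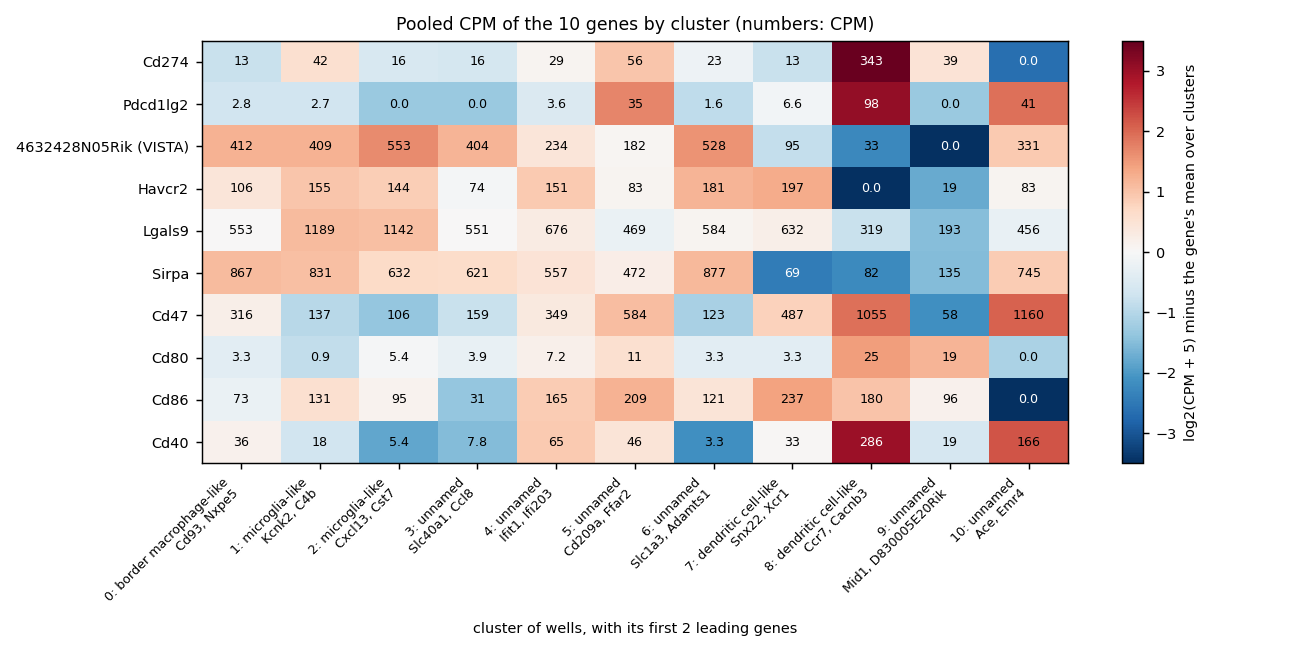
Pooled CPM of the 10 genes in each cluster, coloured as the log2 of CPM + 5 minus the gene's mean over clusters, with the first 2 leading genes under each cluster's name. The Ccr7-led dendritic cell-like cluster held 343 CPM of Cd274, 286 CPM of Cd40 and 1055 CPM of Cd47, and 0 transcripts of Havcr2.

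Cd274, Pdcd1lg2 and Cd40 were concentrated in the Ccr7-led dendritic cell-like cluster. It had 343 CPM of Cd274 (247 to 464), seen in 20 of 36 wells, against 0 to 56.3 CPM in the other 10 clusters. Pdcd1lg2 was at 98.1 CPM there (50.7 to 171) on 12 transcripts, and Cd40 at 286 CPM (199 to 398) on 35 transcripts. In an unnamed cluster of 10 wells led by Ace, Pdcd1lg2 was at 41.4 CPM (1.05 to 231) on 1 transcript and Cd40 at 166 CPM (45.1 to 424) on 4. Pdcd1lg2 was at 34.8 CPM (18.5 to 59.5) in an unnamed cluster led by Cd209a. In the Ccr7-led cluster Cd40 was seen in 12 of the 36 wells, and a single well held 16 of its 35 transcripts. The level and share of Cd40 in this cluster therefore rest in large part on that well. The Ccr7-led cluster held 9.67% of the transcripts of BMDM without WBRT but 51.2% of its Cd274, 57.1% of its Pdcd1lg2, 44.9% of its Cd40 and 24.3% of its Cd47. For Cd86 the share was 11.7% and for Lgals9 4.48%, so these were not concentrated in it.

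Sirpa and VISTA were low in both dendritic cell-like clusters. Sirpa was at 81.7 CPM in the Ccr7-led cluster and 69.0 CPM in the Xcr1-led one, against 867 CPM in the border-associated macrophage-like cluster and 632 and 831 CPM in the microglia-like clusters. VISTA was at 32.7 CPM in the Ccr7-led cluster and 95.3 CPM in the Xcr1-led one, against 412 CPM in the border-associated macrophage-like cluster and 409 and 553 CPM in the microglia-like ones. Havcr2 separated the 2 dendritic cell-like clusters, with 0 transcripts in the Ccr7-led one, where 3 transcripts would be 24.5 CPM, and 197 CPM (151 to 254) in the Xcr1-led one. Cd274 separated them too, at 13.1 CPM (3.58 to 33.7) in the Xcr1-led cluster.

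Cd47 was at 1055 CPM in the Ccr7-led cluster, 487 CPM in the Xcr1-led one and 584 CPM in the Cd209a-led one, against 106 and 137 CPM in the microglia-like clusters. The Ace-led cluster of 10 wells had 1160 CPM (771 to 1676). Cd47 was also low in the Slc1a3-led cluster (123 CPM), and lowest in an unnamed cluster of 14 wells led by Mid1, with 57.8 CPM (11.9 to 169) on 3 transcripts. Cd86 was present in every named cluster, with 73.1 CPM in the border-associated macrophage-like cluster, 94.9 and 131 CPM in the microglia-like ones, and 180 and 237 CPM in the dendritic cell-like ones.

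Leaving these wells out altered what the BMDM plates showed. Without the Ccr7-led cluster, Cd274 stood at 16.7 CPM in BMDM with WBRT and 35.0 CPM in BMDM without WBRT, a log2 ratio of -0.88 that no longer passed 2-fold. Without both dendritic cell-like clusters it had 17.1 CPM in BMDM with WBRT and 40.2 CPM in BMDM without WBRT, and a log2 ratio of -1.03, just past 2-fold. The direction held in both, at a smaller size than the -1.68 over all wells. For BMDM against microglia without WBRT, the higher level in BMDM was no longer seen. Once the Ccr7-led cluster was out, Cd274 was at 35.0 CPM in BMDM, inside the interval of microglia (38.9 CPM, 26.9 to 54.3).

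Other members moved in the same check. Without the Ccr7-led cluster, Cd40 was at 32.6 CPM in BMDM with WBRT and 37.6 CPM in BMDM without WBRT, and Pdcd1lg2 at 5.17 CPM with WBRT and 7.87 CPM without WBRT. Cd47 without both dendritic cell-like clusters was 314 CPM in BMDM with WBRT and 311 CPM in BMDM without WBRT, a log2 ratio of 0.01. Its excess over microglia remained past 2-fold in that check, at 2.87 times with WBRT and 2.67 times without WBRT. Sirpa and VISTA kept their direction with WBRT in BMDM, at 1.29 and 1.32 times in place of 1.70 and 1.66. Lgals9 of BMDM was at 0.50 times the level of microglia without WBRT in either check. Its log2(CPM + 5) ratio was -0.98 without both dendritic cell-like clusters and -0.996 without the Ccr7-led one, just short of 2-fold, and with scaling to the ERCC spike-ins over all wells it was -0.94.

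**Figure D5:**
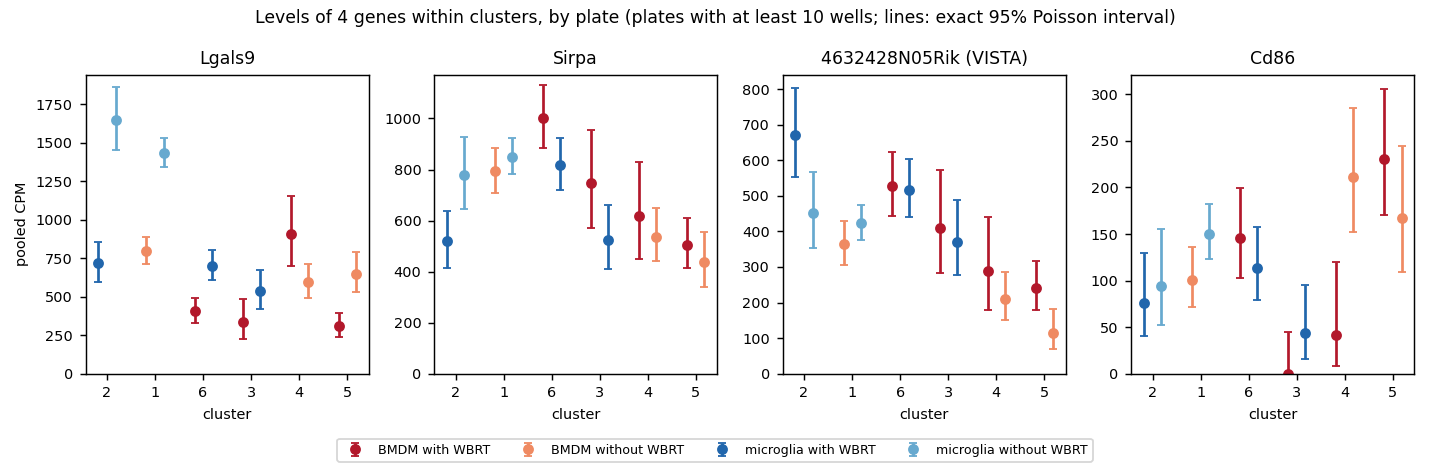
Pooled CPM with Poisson 95% intervals of 4 genes in each plate within clusters that had at least 10 wells from 2 plates. Lgals9 in the microglia-like cluster led by Cxcl13 and Cst7 was 716 CPM with WBRT and 1649 CPM without WBRT in microglia.

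Within clusters present in 2 plates, Lgals9 had the direction of the whole plates in all but the Ifit1-led cluster. In the microglia-like cluster led by Cxcl13 and Cst7, Lgals9 was at 716 CPM in 58 wells of microglia with WBRT and 1649 CPM in 59 wells of microglia without WBRT, a ratio of 0.43 (0.35 to 0.54). VISTA went the other way there, with 670 CPM with WBRT and 451 CPM without WBRT (1.48, 1.096 to 2.02), and Sirpa had 518 CPM with WBRT and 777 CPM without WBRT (0.67, 0.50 to 0.88). Cd47 was 93.1 CPM with WBRT and 94.0 CPM without WBRT. So the directions of Lgals9, VISTA and Sirpa between the microglia plates were the same in this cluster as in the whole plates. The astrocyte markers summed to 99.0 CPM with WBRT and 75.2 CPM without WBRT in these wells, and the border-associated macrophage markers to 233 CPM with WBRT and 50.1 CPM without WBRT. Monocyte markers summed to 760 CPM with WBRT and 125 CPM without WBRT there, and microglia markers to 15498 CPM with WBRT and 10827 CPM without WBRT. The part of these markers in the ratios was not tested.

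Between sorts, Lgals9 was lower in BMDM wells than in microglia wells of the same cluster. In the microglia-like cluster led by Kcnk2 it was at 796 CPM in 46 wells of BMDM without WBRT and 1434 CPM in 88 wells of microglia without WBRT (0.55, 0.49 to 0.63). In the Slc1a3-led cluster it was at 405 CPM in 21 wells of BMDM with WBRT and 702 CPM in 33 wells of microglia with WBRT (0.58, 0.45 to 0.73). The astrocyte markers there summed to 38.2 CPM in BMDM with WBRT and 1703 CPM in microglia with WBRT, and their part in this ratio was not tested. An unnamed cluster led by Slc40a1 had 337 CPM in BMDM with WBRT and 538 CPM in microglia with WBRT (0.63, 0.39 to 0.98). Other marker sums also differed by sort. Border-associated macrophage markers had 263 CPM in BMDM and 47.2 CPM in microglia in the Kcnk2-led cluster, 845 and 127 CPM in the Slc1a3-led one, and 2009 and 1004 CPM in the Slc40a1-led one. Microglia markers had 7181 and 9782, 9577 and 11487, and 4443 and 4148 CPM in the same order. Their part in the Lgals9 ratios was not tested. For Cd47 the intervals of the ratios between sorts reached 1. In the Kcnk2-led cluster it was at 166 CPM in BMDM without WBRT and 121 CPM in microglia without WBRT (1.37, 0.97 to 1.91), and in the Slc1a3-led one at 126 CPM in BMDM with WBRT and 120 CPM in microglia with WBRT (1.05, 0.64 to 1.73).

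WBRT could be compared within 2 unnamed BMDM clusters, and they differed from each other. In the one led by Cd209a, Lgals9 was at 308 CPM in 25 wells with WBRT and 649 CPM in 35 wells without WBRT (0.47, 0.34 to 0.65), and VISTA at 240 CPM with WBRT and 116 CPM without WBRT (2.08, 1.19 to 3.79). In the one led by Ifit1, an interferon-induced gene, Lgals9 was at 908 CPM in 21 wells with WBRT and 597 CPM in 47 wells without WBRT (1.52, 1.11 to 2.07). Cd86 in the Ifit1-led cluster was at 41.2 CPM with WBRT and 211 CPM without WBRT (0.20, 0.04 to 0.61), on 3 and 42 transcripts. Marker sums of the Ifit1-led wells differed between these plates. Dendritic cell markers had 55.0 CPM with WBRT and 758 CPM without WBRT, and NK cell markers 0 and 437 CPM. Monocyte markers had 3277 CPM with WBRT and 1742 CPM without WBRT, and microglia markers 2764 and 2832 CPM. The part of these markers in the ratios was not tested. In the Cd209a-led cluster Cd86 was at 231 CPM with WBRT and 167 CPM without WBRT (1.38, 0.84 to 2.32). Cd274 in the Cd209a-led cluster was 48.1 CPM with WBRT and 44.96 CPM without WBRT (1.07, 0.37 to 3.31), on 10 and 7 transcripts, and no difference was detectable there at this depth.

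Genes whose level over the 11 clusters was most like that of each member were found among 4038 genes by Pearson's r of log2(CPM + 5), as a description in which clusters share plates and depth. Relb, a subunit of the NF-κB factor that CD40 activates, was most like Cd274 (0.95), at 687 CPM in the Ccr7-led cluster and 0 to 77.7 CPM elsewhere. Sdc3 was most like Lgals9 (0.96), Fcer1g most like Sirpa (0.97), Plod3 most like VISTA (0.98), H3f3a most like Cd47 (0.97), Rrbp1 most like Havcr2 (0.96), N4bp2l2 most like Cd86 (0.97) and Adrbk2 most like Cd40 (0.96).

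A list of costimulatory and inhibitory receptors of lymphocytes was then read, only some of which bind the products of the 10 genes. Of 14 listed, 12 had a row, and together they had 54.9 CPM in BMDM with WBRT and 204 CPM in BMDM without WBRT, against 89.4 CPM in microglia with WBRT and 301 CPM in microglia without WBRT. Lag3 and Btla, whose main ligands are not among the 10 products, made up most of these sums in every plate. Lag3, an inhibitory receptor for MHC class II, was at 16.3 CPM in BMDM with WBRT and 47.4 CPM in BMDM without WBRT, against 49.3 CPM in microglia with WBRT and 255 CPM in microglia without WBRT. By cluster it was at 194 and 155 CPM in the microglia-like clusters. Btla, an inhibitory receptor for HVEM, was at 365 CPM in the Xcr1-led dendritic cell-like cluster, and over plates at 27.5 CPM in BMDM with WBRT and 77.4 CPM in BMDM without WBRT, against 1.54 CPM in microglia with WBRT and 3.43 CPM in microglia without WBRT.

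Pdcd1, which encodes PD-1, was at 1.99 CPM in BMDM with WBRT and 9.48 CPM in BMDM without WBRT, against 32.4 CPM in microglia with WBRT and 26.3 CPM in microglia without WBRT. The 4 measured T cell markers, of 7 listed, summed to 22.3 CPM in BMDM with WBRT and 33.2 CPM in BMDM without WBRT, against 6.16 CPM in microglia with WBRT and 5.72 CPM in microglia without WBRT. Cd4, Cd8a and Lck were at 0 in both microglia plates. The 7 NK cell markers summed to 16.3 CPM in BMDM with WBRT and 122 CPM in BMDM without WBRT, against 0 CPM in microglia with WBRT and 48.1 CPM in microglia without WBRT. Their part in the members' levels was not tested.

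Upstream of PD-L1, a list of interferon gamma pathway genes and other regulators of Cd274 was compared. Of 13 measured for WBRT over no WBRT in BMDM, 3 were past 2-fold lower, against 6.14% of all genes, and 0 higher, against 5.16%, and the median log2 ratio was -0.59 against 0.08 for all genes. Jak2 was at 54.9 CPM with WBRT and 269 CPM without WBRT, the transcription factor gene Irf8 at 371 CPM with WBRT and 902 CPM without WBRT, and Irf1 at 53.3 CPM with WBRT and 132 CPM without WBRT. Jak2, like its neighbour Cd274, stood highest in the Ccr7-led cluster, at 1047 CPM (873 to 1245), against 24.4 to 299 CPM elsewhere. In microglia 1 of 14 was past 2-fold lower, against 7.56% of all genes, Jak2 with 18.5 CPM with WBRT and 49.2 CPM without WBRT, and the median was -0.30.

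Downstream of CD40, 12 genes were measured in BMDM and 3 were past 2-fold lower with WBRT, against 6.14% of all genes, and 0 higher, against 5.16%, with a median of -0.53. Traf1, an adaptor of this receptor family, was at 25.1 CPM with WBRT and 126 CPM without WBRT, Relb at 31.4 CPM with WBRT and 98.7 CPM without WBRT, and the kinase gene Map3k14 at 27.5 CPM with WBRT and 72.7 CPM without WBRT. Traf1 too was highest in the Ccr7-led cluster, at 720 CPM. For BMDM over microglia without WBRT, 5 of 12 were past 2-fold higher, against 10.3% of all genes, and 0 lower, against 6.81%. One of the 5 was Traf1, with 126 CPM in BMDM and 4.57 CPM in microglia. In microglia, 1 of 9 was past 2-fold higher with WBRT, against 9.36% of all genes, and the median was -0.09.

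Among further partners of CD47, Thbs1, which encodes the ligand thrombospondin-1, was at 179 CPM in BMDM with WBRT and 56.1 CPM in BMDM without WBRT, against 7.70 CPM in microglia with WBRT and 25.2 CPM in microglia without WBRT. Cd24a, which encodes another antiphagocytic surface protein, was at 39.8 CPM in BMDM with WBRT and 169 CPM in BMDM without WBRT. It was also one of the leading genes of the Xcr1-led cluster.

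Of other B7 and costimulatory ligands, 8 were measured for WBRT over no WBRT in BMDM. Of these, 1 was past 2-fold higher, against 5.16% of all genes, and 2 lower, against 6.14%, with a median of 0.04. Tnfsf9, the ligand of 4-1BB, was at 25.9 CPM with WBRT and 7.90 CPM without WBRT, Icosl, the ligand of ICOS, at 42.2 CPM with WBRT and 92.4 CPM without WBRT, and Pvrl2 (nectin-2) at 9.55 CPM with WBRT and 38.7 CPM without WBRT. In microglia Pvrl2 was 40.1 CPM with WBRT and 93.7 CPM without WBRT, the 1 gene of 8 past 2-fold lower there, against 7.56% of all genes. For BMDM over microglia with WBRT, 1 of 8 was past 2-fold higher, against 7.91% of all genes, and 2 lower, against 7.45%. Without WBRT, 1 of 7 was past 2-fold higher, against 10.3% of all genes, and 2 lower, against 6.81%. Pvr, which encodes a ligand of TIGIT, had 109 CPM in BMDM with WBRT against 38.5 CPM in microglia with WBRT, and 107 CPM in BMDM without WBRT against 26.3 CPM in microglia without WBRT. Icam1, an adhesion ligand of LFA-1, went the other way, with 147 CPM in BMDM with WBRT against 443 CPM in microglia with WBRT, and 124 CPM in BMDM without WBRT against 297 CPM in microglia without WBRT. Pvrl2, by the values above, was likewise lower in BMDM than in microglia in both settings.

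A further list held inhibitory receptors of myeloid cells other than SIRPα and TIM-3, together with their phosphatases. Of 12 measured in BMDM, 1 was past 2-fold higher with WBRT, against 5.16% of all genes, and 0 lower, against 6.14%, with a median of 0.51. That gene was Pilra, with 92.7 CPM in BMDM with WBRT and 35.5 CPM in BMDM without WBRT. In microglia 1 of 11 was past 2-fold higher, against 9.36% of all genes, Cd33, with 73.9 CPM with WBRT and 22.9 CPM without WBRT. Clec12a had 86.4 CPM in BMDM with WBRT against 6.16 CPM in microglia with WBRT, and 67.2 CPM in BMDM without WBRT against 0 CPM in microglia without WBRT. Of the TIM family and further TIM-3 ligands, Timd4 had 49.8 CPM in BMDM with WBRT against 0 CPM in microglia with WBRT, and 61.6 CPM in BMDM without WBRT against 2.29 CPM in microglia without WBRT.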

How the data were processed

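For each gene and well of 4 plates of sorted cells, the authors deposited an estimated count of transcripts. The authors' expected counts are corrected for molecular identifiers that coincide by chance, as read from the values. The genome build was GRCm38, per the submitters' processing notes. The sources used here do not name the aligner, the counter or the annotation. Counts of kept wells were summed per plate or per cluster and divided by all endogenous counts, mitochondrial ones included. Gene symbols are those of the files, and older ones were matched through RefSeq's GRCm38.p6 table.

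Folds have exact conditional intervals of a ratio of Poisson counts and shares of wells exact (Clopper-Pearson) intervals, all at 95%. They cover counting error only, and transcripts of a well are not independent. Counts were rounded to whole numbers for intervals and for TMM factors (edgeR 4.0.16). Clustering used scanpy 1.11.5 with Leiden at resolution 1, on 15 nearest neighbours in 30 principal components of 2000 variable genes. Computation was checked on simulated counts. A cluster's leading genes had at least 50 CPM and a transcript in at least 25% of its wells.

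The members, the 7 pathway lists and the cell type markers were chosen with earlier results of these data known. Named were all members, up to 4 genes of each list per comparison by size of log2 ratio, the leading genes of clusters and, of the 3 genes most like each member, the first. Alternatives were wells of at least 500 or 3000 counts, every well weighted alike, TMM and ERCC scaling, other denominators and pseudocounts, no floor, low-Malat1 wells out, the 3 highest wells out and dendritic cell-like clusters out.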

Additional observations from a re-analysis of the deposited data

Results flagged for a closer look

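Sirpa differed between the sorts in the direction of its WBRT difference. The log2 ratio of WBRT to no WBRT was 0.76 in BMDM and -0.29 in microglia, and the log2 ratio of BMDM to microglia was 0.25 with WBRT and -0.79 without WBRT. With 1 plate per group this difference between ratios was not tested. When wells under 1000 CPM of Malat1 were left out, the ratios were -0.11 for WBRT in microglia and 0.01 for BMDM over microglia with WBRT.

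Wells that missed the minimum of 1000 transcripts or the ERCC limit still held transcripts of the members. Their summed counts were 59 in 122 wells of BMDM with WBRT and 68 in 150 wells of BMDM without WBRT. They were 166 in 233 wells of microglia with WBRT and 194 in 227 wells of microglia without WBRT. Pdcd1lg2 and Cd80 had 0 transcripts in all of these wells, and Cd274 had 1 in each plate.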

How the results depend on the processing

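Over all checks of single members, 481 values moved by less than counting error, 33 moved by more and 6 changed sign, these last among ratios whose interval excluded 1. A further 15 changed sign among ratios whose interval included 1, which the first 2 counts hold. The first count is not a measure of stability. It holds 40 values of the setting without a floor, which could not move. Ratios with 0 transcripts in 1 plate had no finite interval and could only fall in it, and low members have wide intervals. Under ERCC scaling the median log2 ratio of all genes was 0.16 for BMDM over microglia without WBRT and 1.46 with WBRT. For WBRT over no WBRT it was -0.18 in BMDM and -1.49 in microglia. As reported, these medians were 0.02, 0.07, 0.08 and 0.06 in that order. With ERCC scaling 4632428N05Rik (1.11), Havcr2 (0.86) and Lgals9 (1.11) turned to higher in BMDM than in microglia with WBRT, and 4632428N05Rik (-1.33) to lower with WBRT in microglia. The members' median became 1.57 for BMDM over microglia with WBRT, -0.70 for WBRT in BMDM and -1.99 for WBRT in microglia, with 6, 3 and 8 members past 2-fold; over the members measured in the reported setting it was 1.34, -0.68 and -1.95. With every well weighted alike the median was 0.34 for BMDM over microglia in both settings and -0.75 for WBRT in BMDM (0.14 with WBRT, 0.05 without WBRT and -0.57 over the members measured in the reported setting), with 3 members past 2-fold there and 2 in microglia. With no floor the median of BMDM over microglia without WBRT was 0.30 over all 10 members, and 2 members were past 2-fold for WBRT in either sort. Leaving out low-Malat1 wells gave 2 past 2-fold for WBRT in microglia. Leaving out the Ccr7-led cluster, chosen after seeing the data, gave 0 for WBRT in BMDM. The same step moved Cd274 to -0.13 for BMDM over microglia without WBRT, a change of sign that left no clear difference. The share of all genes past 2-fold was not computed under these alternatives, so these counts of members are not set against it. With ERCC scaling the median of all genes itself passed 2-fold for BMDM over microglia with WBRT and for WBRT in microglia. Without both dendritic cell-like clusters Cd47 moved to 0.0098 for WBRT in BMDM, a change of sign that left nearly no difference. The ratio of Cd274 shares for WBRT to no WBRT in BMDM was 0.197 thinned and 0.456 unthinned. The causes of the other shifts were not tested. At Leiden resolutions 0.5 and 2 the Ccr7-led cluster again had 36 wells. No paired analysis was possible because each group was 1 plate, and no replicate could be left out. Members under 20 CPM are limited by depth.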
